A study of Mus musculus with 48 samples.

Results

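Fos, Fosb, Jun, Junb, Jund, Egr1, Atf3, Ier2, Dusp1 and Zfp36 are immediate early genes, which cells transcribe within minutes of a stimulus without first making new protein. These 10 genes were taken by name from the expression table of microglia sorted from the hippocampus of juvenile mice, and they are 10 of its 48526 genes. All 10 passed the filter on low values and were among the 10132 genes tested. The mice were C57BL/6, and the brain of the irradiated animals received 8 Gy in 1 dose on postnatal day 21, while sham animals served as controls. Microglia were collected 2 h, 6 h, 1 day and 1 week later from 6 sham and 6 irradiated animals at each time, which gave 8 groups and 48 libraries. No altered allele, transgene or drug is named for any group. Animals of every group were perfused, the hippocampus was brought into suspension by mild enzymatic digestion, and cells were sorted on Cx3cr1. Digestion and sorting were therefore common to sham and irradiated samples, and tissue that was not digested was not analysed here. The comparisons ask whether these genes differed between irradiated and sham microglia at each time, and whether they differed among the sham groups, which received no dose.

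Immediate early genes are switched on by MAP kinase cascades, which phosphorylate transcription factors already sitting on the promoters, such as serum response factor with its ternary complex partners and CREB at cyclic AMP response elements. The FOS and JUN proteins pair to form the transcription factor AP-1, Egr1 encodes a zinc finger factor, and Dusp1 and Zfp36 encode brakes, the first a phosphatase of MAP kinases and the second a protein that hastens the decay of short-lived mRNAs. Enzymatic digestion of brain tissue at warm temperature is known to raise these genes in microglia, together with heat shock genes, after the animal has died.

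Promoter sequences show some of the elements through which such genes are read out. RefSeq promoter entries (GRCm38.p6) were found for 8 of the 10 genes. For 3 of these the RefSeq start lies far from the start in the deposited table: in Atf3 it is 34706 bases and in Zfp36 1025 bases inside the deposited gene, and in Jund 1210 bases before it. All 250 bases of the Zfp36 window are exon bases of that gene. In the 250 bases before the start, the cyclic AMP response element TGACGTCA was found in 1 of these 8, Dusp1, against 1.55% of 32851 promoters, with both strands searched. Its core TGACGT, which the full element contains, was found in Atf3, Dusp1 and Fos, against 6.47% of promoters. The AP-1 site TGACTCA was found in 0 of 8, against 4.46% of promoters. A CArG box, the element bound by serum response factor, was found in the Zfp36 window, within exon sequence, against 1.47% of promoters, and the TATA box TATAAA in Fos, against 12.4%. Fos and Dusp1 are shown for these matches and Junb because it is one of the JUN genes with results described further on and had no match. Each runs 5′ to 3′ on the strand of the gene up to the last base before an annotated exon, with matches in capitals. The Fos stretch is chr12:85473640-85473889 on the plus strand, the Dusp1 stretch chr17:26508520-26508722 on the minus strand and the Junb stretch chr8:84978749-84978998 on the minus strand.
Fos: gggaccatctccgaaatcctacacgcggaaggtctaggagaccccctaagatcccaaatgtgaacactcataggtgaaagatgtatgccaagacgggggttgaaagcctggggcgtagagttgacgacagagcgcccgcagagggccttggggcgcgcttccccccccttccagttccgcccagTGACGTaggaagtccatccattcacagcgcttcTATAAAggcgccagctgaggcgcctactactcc
Dusp1: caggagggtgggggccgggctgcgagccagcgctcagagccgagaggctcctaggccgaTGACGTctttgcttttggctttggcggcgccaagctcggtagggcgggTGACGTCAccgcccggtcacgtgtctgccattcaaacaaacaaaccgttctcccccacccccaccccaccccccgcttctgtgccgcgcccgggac
Junb: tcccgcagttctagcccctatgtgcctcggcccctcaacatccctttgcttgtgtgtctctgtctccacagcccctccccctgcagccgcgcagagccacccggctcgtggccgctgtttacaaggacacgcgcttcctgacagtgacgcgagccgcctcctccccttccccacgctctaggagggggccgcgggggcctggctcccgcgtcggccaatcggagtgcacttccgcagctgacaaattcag
In Fos the core lies at positions -66 to -61 and the TATA box at positions -33 to -28 from the start. In Dusp1 the full element lies at -143 to -136, and a further core at -191 to -186. A match is a run of letters and was not shown to be bound here. Sequence outside the 250 bases was not searched, so a gene without a match may hold the element elsewhere.

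Libraries held between 175382 and 3856777 assigned reads, with 3 of 48 under 1000000, namely library 4 of the sham 6 h group, library 6 of the sham 1 day group and library 2 of the irradiated 2 h group. The lowest read count of any of the 10 genes in any library was 10, for Jund in sham 6 h library 4. The summed level of 10 microglial markers ran from 22852 to 39666 RPM (reads per 1000000 assigned reads). The summed level of 10 neuronal markers was 0.69 to 35.6 RPM in all libraries but irradiated 1 week library 4, where it was 369, and lymphocyte markers did not exceed 4.16. Marker sums of astrocytes, oligodendrocytes, vascular cells, perivascular macrophages, and monocytes with neutrophils did not exceed 215 RPM. Among the sham 6 h libraries, numbers 1 to 4 differed from 5 and 6 across the transcriptome, with 22.2% of tested genes lower and 12.5% higher in all 4 than in both others. The 1010 tested genes in the highest 10% of GC content were also low in those 4 libraries and in all 12 libraries of 2 h, with median deviations from each gene's mean of -0.45 to -0.25 on the log2(RPKM + 1) scale, while sham 6 h libraries 5 and 6 and the irradiated 6 h libraries were at 0.18 to 0.32. The shallow sham 1 day library 6 was at -0.38. The cause of these differences was not tested. In bulk RNA of sorted cells, fewer cells expressing a gene and less RNA per cell cannot be told apart.

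The 10 genes were abundant in every group. Together they took between 3029 and 22162 RPM in the 48 libraries. The lowest of these sums was in sham 1 day library 3 and the highest in sham 2 h library 3. Within the sham 2 h group the sum ran from 3896 to 22162, with a median of 10292, and within the irradiated 2 h group from 4082 to 14224, with a median of 7798. The 1 day groups were lower and tighter than those of 2 h, from 3029 to 7065 in sham and from 3226 to 6569 in irradiated microglia. All further levels are in RPKM, the RPM of a gene divided by its span in kilobases. The span includes introns, so Atf3, with a span of 47744 bases, reads low beside Jun, whose span of 3189 bases equals its transcript. Jun, Junb, Jund, Zfp36 and Atf3 each overlap a gene on the opposite strand (Prdx2 in the case of Junb, Gm11175 in that of Jund). The strand setting of the counting is not given in the sources used here, so reads of such neighbours may not be told apart.

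**Figure D1:**
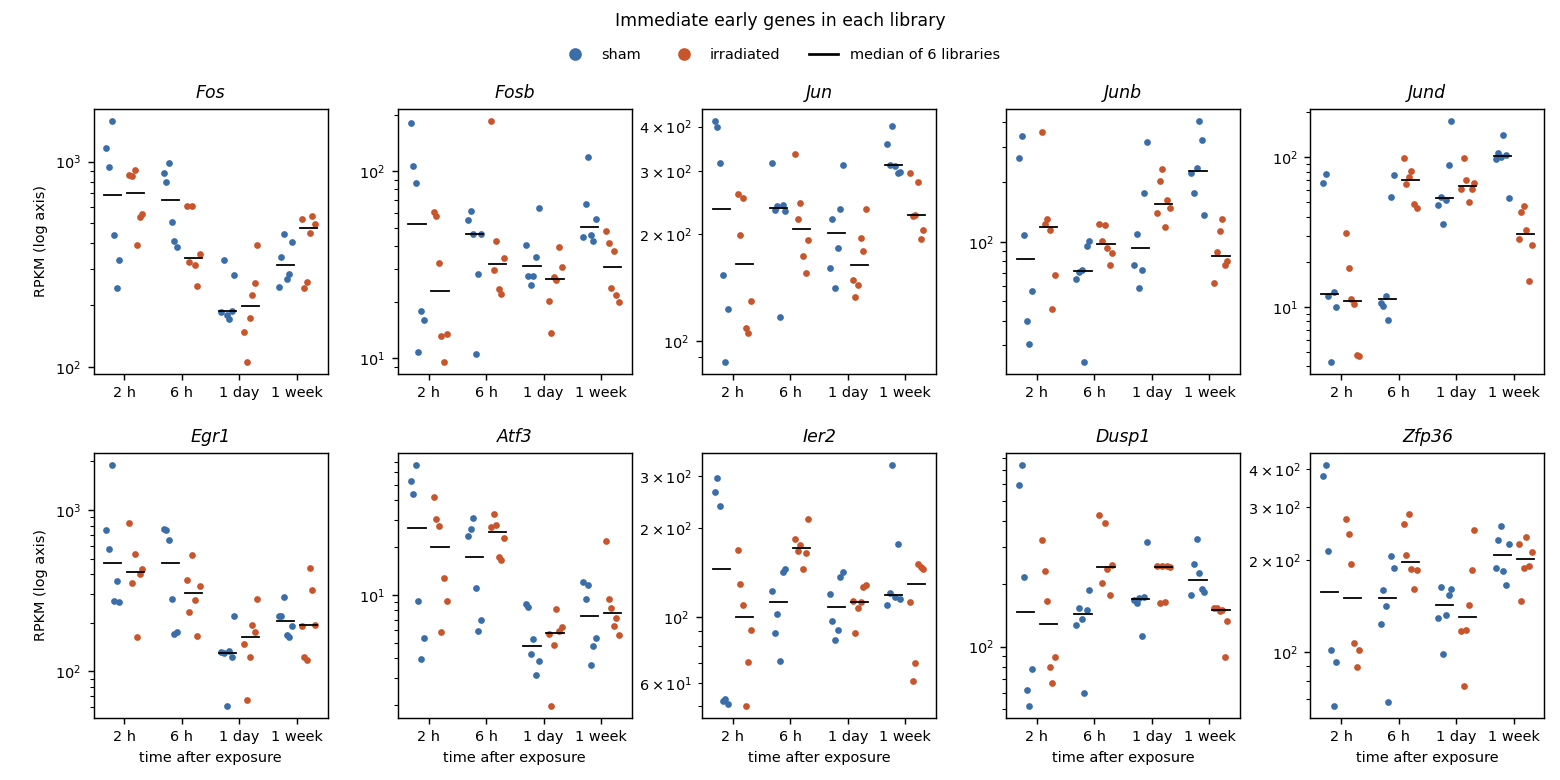
RPKM of the 10 immediate early genes (log axis) in each of 48 libraries by time after exposure, sham in blue and irradiated in orange, with points ordered by library number within a group and black lines at the group median. The sham 2 h values span 241 to 1574 RPKM for Fos against 171 to 331 at 1 day, and the 1 week groups separate for Jun, Junb, Jund and Dusp1.

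The 2 h libraries fell into the same sets for nearly all of these genes, in sham and irradiated animals alike. Fos, the partner of JUN proteins in AP-1, had 1164, 941 and 1574 RPKM in sham 2 h libraries 1, 2 and 3, and 438, 241 and 333 in libraries 4, 5 and 6. In the irradiated 2 h group Fos had 862, 855 and 915 RPKM in libraries 1 to 3 and 393, 539 and 554 in libraries 4 to 6. So the first 3 libraries stood above the last 3 in both groups. The mitochondrial share of reads separated the same sets in sham 2 h, at 3.05% to 4.47% in libraries 1 to 3 and 7.03% to 9.34% in libraries 4 to 6, and overlapped in irradiated 2 h, at 9.20% to 14.6% against 6.14% to 12.3%. Its part in these levels was not tested. Dusp1 spread further, with 592, 741 and 215 RPKM in sham libraries 1 to 3 and 62.0, 52.2 and 77.8 in libraries 4 to 6. Atf3, a stress-induced partner and repressor in the ATF family, had 52.9, 43.6 and 66.5 against 9.23, 3.92 and 5.36 RPKM in the same libraries. Ier2, a small nuclear protein gene of the early response, had 265, 294 and 237 against 52.2, 52.8 and 50.7 RPKM.

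For each of the 10 genes the ratio of the highest to the lowest library was larger in the sham 2 h group than in the other 7 groups, from 4.75 for Jun to 18.0 for Jund. Counted over the 10 genes, libraries 1 to 3 were all above libraries 4 to 6 for 9 of 10 in the sham 2 h group, where 8.99% of all tested genes had this order, and for 9 of 10 in the irradiated 2 h group, where 6.94% had it. The exception in sham was Jund, at 11.9 RPKM in library 3 against 12.6 in library 5, and among irradiated microglia Egr1, at 354 in library 2 against 429.6 in library 6. At 6 h the same order held for 3 of 10 in sham (6.9% of tested genes) and for 4 of 10 in irradiated microglia (6.09%). At 1 week it held for 3 of 10 in sham (5.72%) and 1 of 10 in irradiated microglia (6.56%). At 1 day it held for 0 of 10 in sham (9.36%) and in irradiated microglia (7.58%), and in the latter the opposite order held for 5 of 10 (9.55%). The labels give these numbers only in the sample titles, and no batch, day or operator is tied to them. These sets of libraries were noticed in the values themselves, so the counts are a description with no test.

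The summed level of 15 heat shock genes separated the same sets of libraries at 2 h, but also in groups where few of the 10 genes did. It was 2724 to 3081 RPM in sham 2 h libraries 1 to 3 and 1848 to 2325 in libraries 4 to 6, and 2498 to 2731 against 1706 to 2290 in the irradiated 2 h group. At 6 h it was 3706 to 4311 against 1761 to 2207 in sham and 2579 to 2695 against 1684 to 1951 in irradiated microglia. In the sham 1 week group it was 2996 to 3244 against 2449 to 2936, in the sham 1 day group the order was reversed, at 2072 to 2385 against 2538 to 2640 RPM, and in the irradiated 1 day and 1 week groups the sets overlapped. The part of handling in these sums was not tested.

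**Figure D2:**
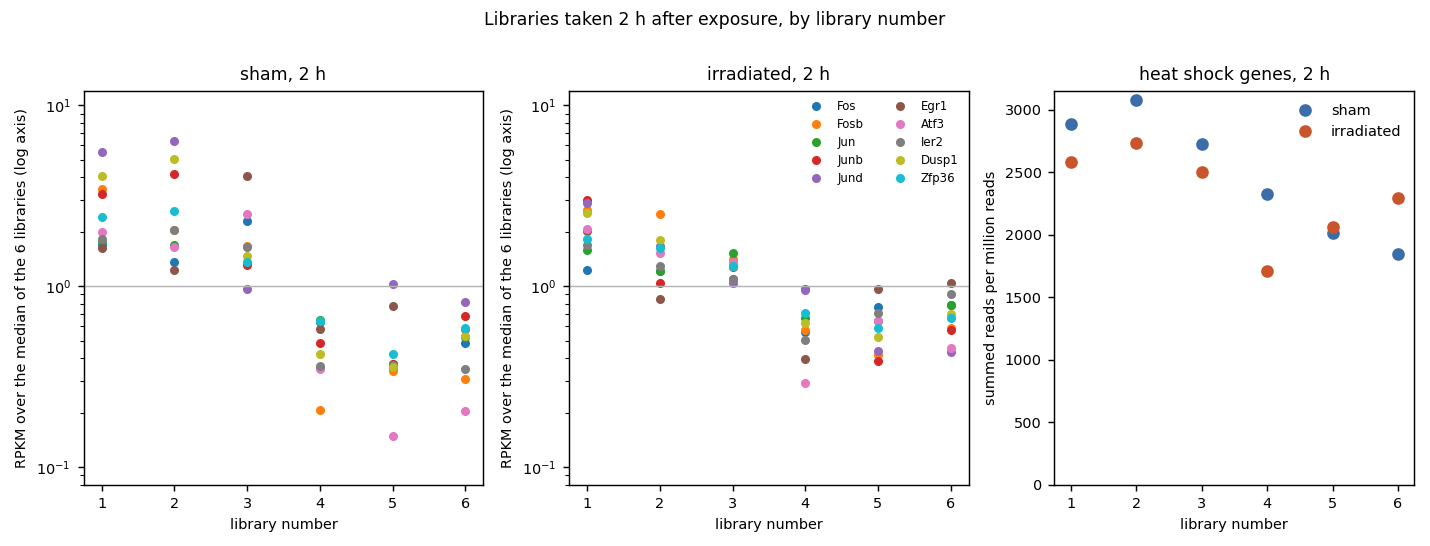
Left and middle, RPKM of each gene divided by its median over the 6 libraries (log axis) in the sham and irradiated 2 h groups, by library number. Right, summed RPM of 15 heat shock genes in the same libraries. Libraries 1 to 3 sit above libraries 4 to 6 for 9 of 10 genes in each group, and for the heat shock sum.

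At 2 h after exposure none of the 10 genes passed the test between irradiated and sham microglia (0 of 10 at an adjusted p under 0.05 by limma; 8.62% of all tested genes passed). None of the 10 had an unadjusted p under 0.05 either, the lowest being 0.15 for Fosb. Fosb, a second FOS family member, ranged from 10.8 to 181 RPKM in sham (median 52.3) and from 9.58 to 60.6 in irradiated libraries (median 22.9), and its difference was -0.77 ± 0.53 (SE) on the log2(RPKM + 1) scale, adjusted p = 0.47. Fos differed by 0.06 ± 0.35 with a 95% interval from -0.64 to 0.76. Jun, the canonical partner of FOS, differed by -0.36 ± 0.28, with sham values of 87.3 to 414 RPKM and irradiated values of 105 to 259. The median difference over the 10 genes was -0.31, against -0.01 over all tested genes, with 2 above 0 and 8 below. The sham and irradiated ranges overlapped for each of the 10 genes, while 2.47% of all tested genes had all irradiated libraries higher and 2.03% all lower.

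The count stayed at 0 when either set of libraries was left out of both 2 h groups. Within libraries 4 to 6, Fos differed by 0.58 and Fosb by -0.27, and within libraries 1 to 3 by -0.45 and -1.27 (3 against 3 libraries each, no adjusted p under 0.05). Over the 10 genes, 7 differences were above 0 with libraries 4 to 6 and 0 with libraries 1 to 3. These sets were chosen on the genes' own 2 h values, so a shift in direction between them can come from that choice. The counts are a description with no test.

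At 6 h Jund was the 1 gene of 10 that passed, against 20.9% of all tested genes in either direction and 12.9% in the upward one. Jund, the JUN family member that resting cells also express, lies at chr8:70698949-70700616. It had 10.6, 10.2, 11.9, 8.19, 54.4 and 75.6 RPKM in sham libraries 1 to 6 and 99.4, 66.7, 73.6, 81.5, 48.7 and 45.6 in irradiated libraries 1 to 6. It rose by 1.76 ± 0.51 (SE) on the log2(RPKM + 1) scale, adjusted p = 0.011. The 6 irradiated libraries all stood above sham libraries 1 to 4, while sham libraries 5 and 6 lay inside the irradiated range. The mitochondrial share of reads was 5.88% to 7.11% in sham libraries 1 to 4, 3.09% and 3.27% in libraries 5 and 6, and 2.35% to 4.34% in irradiated libraries. Summed markers of perivascular macrophages were 92.9 to 162 RPM in sham and 26.5 to 69.4 in irradiated libraries, without overlap. Their part in the Jund difference was not tested. Against sham libraries 5 and 6 alone the difference was 0.06 (adjusted p = 1.0; 2.09% of tested genes passed), and against libraries 1 to 4 alone it was 2.61 (adjusted p = 9.8e-05; 30.2% passed). Jund has a transcript GC content of 67.1%, higher than 99.8% of tested genes, and after the trend with GC content and span was removed in each library the difference was 1.03 with adjusted p = 0.15. The share of the difference that goes with the library sets or with GC content was not tested further.

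**Figure D3:**
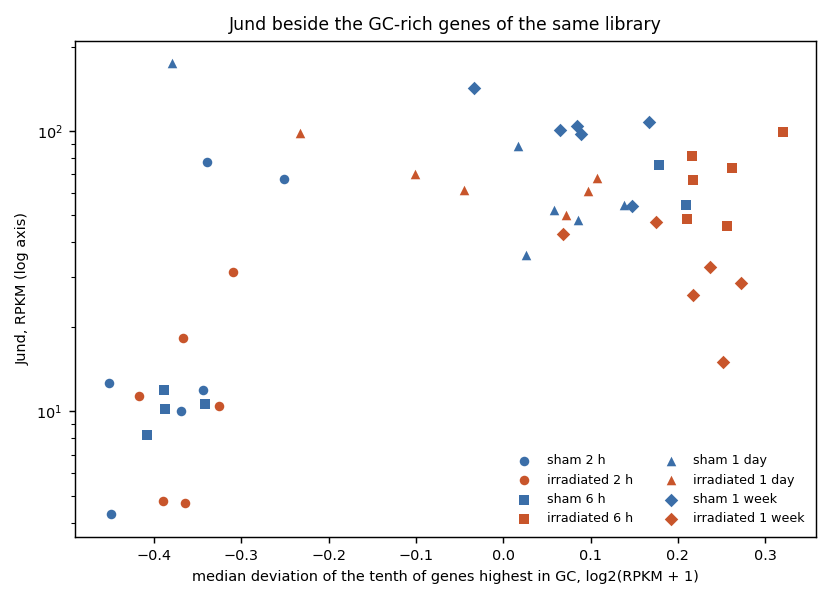
Jund level (RPKM, log axis) in each of 48 libraries against the median deviation of the 1010 tested genes highest in GC content in the same library (log2 scale), by group. Sham 6 h libraries 1 to 4 lie with the 2 h libraries at the left, and sham 6 h libraries 5 and 6 with the irradiated 6 h libraries at the right.

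The remaining 9 genes did not pass at 6 h. Dusp1 had 59.7 to 186 RPKM in sham (median 143) and 176 to 426 in irradiated libraries (median 241), a difference of 1.04 ± 0.43 with adjusted p = 0.081, and 5 of 6 irradiated libraries stood above every sham library. Ier2 was the 1 gene whose groups did not overlap, at 70.9 to 145.0 RPKM in sham and 145.3 to 215 in irradiated libraries, with a difference of 0.68 ± 0.35 and adjusted p = 0.17 (4.96% of all tested genes had irradiated libraries all above sham and 2.88% all below). Its 2 highest sham libraries were again 5 and 6, at 142 and 145.0 RPKM. Zfp36, the mRNA decay factor, differed by 0.59 ± 0.33 (adjusted p = 0.21) and Fos by -0.68 ± 0.35 (adjusted p = 0.17). When only the 12 libraries of 6 h were fitted, Dusp1, Ier2 and Jund passed, among 1427 genes in all. Against sham libraries 1 to 4 alone, where 30.2% of tested genes passed, Fos did too (-0.99, adjusted p = 0.045). The Jund difference as computed from the deposited values, before rescaling, was 1.49 with adjusted p = 0.54. Only 64 genes passed in all at 6 h in that fit, so a lost call says little there.

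Inside the sham 6 h group the genes went in 2 directions between the library sets. Fos, Egr1 and Atf3 were higher in all of libraries 1 to 4 than in 5 and 6, with Egr1 at 280.3 to 761 against 171 and 175 RPKM. Junb, Jund, Ier2 and Zfp36 were lower in all of libraries 1 to 4, with Zfp36 at 68.5 to 159 against 189 and 207 RPKM. Fosb, Jun and Dusp1 overlapped between the sets. These are 3 and 4 of 10 genes, read beside the 12.5% and 22.2% of all tested genes given above.

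At 1 day 0 of 10 genes passed, against 4.29% of all tested genes, and none had an unadjusted p under 0.05. The largest difference in size was that of Junb, a JUN family member that can restrain c-JUN, at 0.54 ± 0.45, with 58.4 to 318 RPKM in sham and 119 to 232 in irradiated libraries. Fos had 171 to 331 RPKM in sham (median 187) and 106 to 392 in irradiated libraries (median 199), with a difference of -0.11 and a 95% interval from -0.81 to 0.59. Jund differed by 0.04 ± 0.51. The groups overlapped for all 10 genes, against 2.29% of tested genes with irradiated libraries all higher and 0.691% all lower. The highest Jund and Junb values of the sham group, 174 and 318 RPKM, were both in library 6, the shallowest of the study at 175382 reads, whose part in them was not tested.

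At 1 week 0 of 10 passed, against 3.54% of all tested genes, but 4 of 10 had every irradiated library below every sham library, an order seen in 1.12% of all tested genes (the opposite order held for 0 of 10, against 2.06%). Jund had 53.8 to 142 RPKM in sham (median 102) and 14.9 to 47.3 in irradiated libraries (median 30.7). Its difference was -1.66 ± 0.51 with adjusted p = 0.058. Junb, at chr8:84974484-84978718, had 137 to 406 RPKM in sham (median 228) and 61.7 to 130.5 in irradiated libraries (median 84.6), a difference of -1.39 ± 0.45 with adjusted p = 0.073. Jun had 297 to 402 RPKM in sham and 193 to 295 in irradiated libraries, a difference of -0.48 ± 0.28 with adjusted p = 0.38. Dusp1 had 176 to 329 RPKM in sham and 88.9 to 153 in irradiated libraries, a difference of -0.70 ± 0.43 with adjusted p = 0.41. The 3 JUN genes thus stood lower together in the irradiated group. Fosb went the same way, with 42.4 to 119 RPKM in sham and 20.0 to 47.6 in irradiated libraries. Its difference was -0.91 with adjusted p = 0.38, and 5 of its 6 irradiated libraries stood below every sham library. Fos, with 247 to 444 RPKM in sham and 242 to 542 in irradiated libraries, differed by 0.30 ± 0.35. For Fos, 4 of 6 irradiated libraries stood above every sham library. Over the 10 genes, 7 differences were below 0 and 3 above.

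Junb and Jund at 1 week were close to the threshold, and the settings fell on both sides of it. With voom weights on the recovered reads, without the 3 shallow libraries, with only the 12 libraries of 1 week, and with the GC trend removed, both passed, and with the GC trend removed the differences were -1.72 for Jund (adjusted p = 0.032) and -1.49 for Junb (adjusted p = 0.046). With no filter on low values the adjusted p was 0.12 for Jund and 0.14 for Junb, and with a replicate block 0.068 and 0.083. With the values as deposited it was 0.85 and 0.98, but only 11 genes passed in all there, so a lost call says little. The differences themselves ran from -1.72 to -1.64 for Jund and from -1.49 to -1.36 for Junb over these and the other whole-table settings. Leaving out 1 library at a time gave adjusted p between 0.043 and 0.16 for Jund and between 0.052 and 0.19 for Junb. In irradiated 1 week library 4, the 1 library where neuronal markers stood out, Egr1 was at 439.5 RPKM, the highest of its group (others 117 to 320). Egr1 is a gene that neurons also express strongly. Jund and Junb had 32.8 and 130.5 RPKM in that library. The part of neuronal RNA in these values was not tested.

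**Figure D4:**
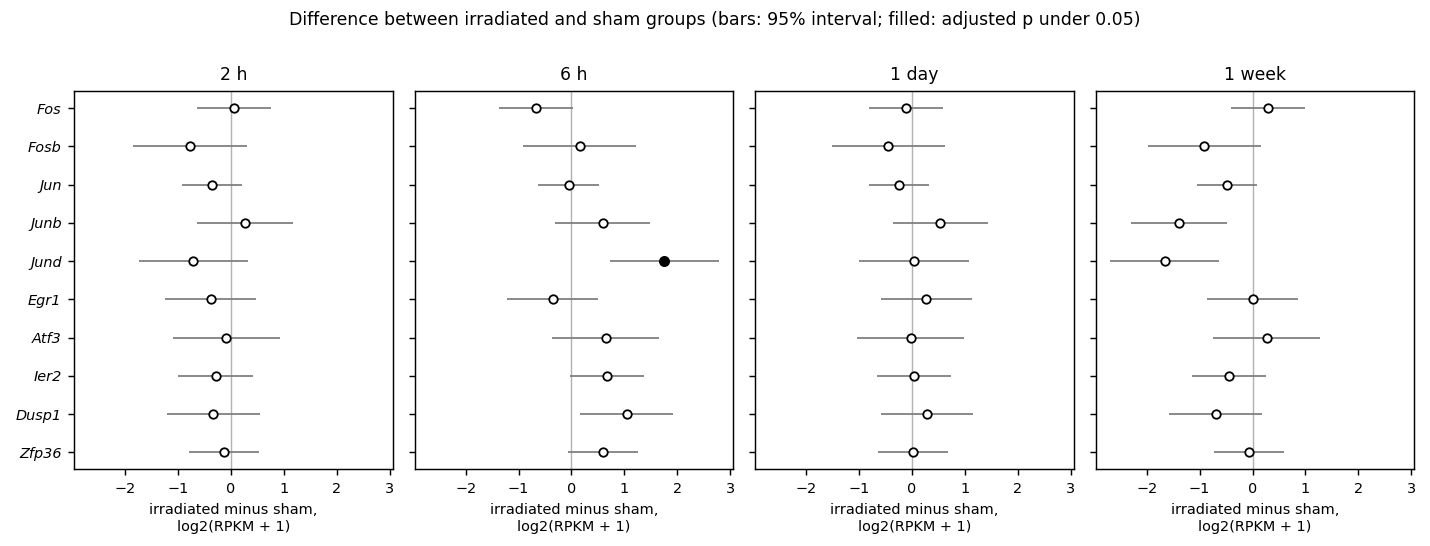
Difference between irradiated and sham groups in log2(RPKM + 1) for each gene at each time, with 95% intervals, filled where the adjusted p was under 0.05. Jund at 6 h is the only filled point, and the intervals of Junb and Jund at 1 week lie below 0 although their adjusted p values are 0.073 and 0.058.

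Whether the difference between irradiated and sham groups itself changed with time was tested with an F test over the 4 times. Jund (adjusted p = 0.0041) and Junb (adjusted p = 0.049) passed, 2 of 10 against 19.3% of all tested genes. From 2 h to 6 h the difference of Jund moved by 2.47 ± 0.72 (adjusted p = 0.025), 1 of 10 against 9.28% of tested genes. With sham 6 h libraries 5 and 6 alone neither gene passed the F test (adjusted p = 0.24 for Jund and 0.13 for Junb). That fit called only 0.839% of tested genes for the step from 2 h to 6 h, so a lost call says little there. With the GC trend removed Jund passed the F test (adjusted p = 0.013) and Junb did not (0.064), where 16.1% of tested genes passed. Junb also failed it in 34 of 48 fits that left out 1 library. Between 6 h and 1 day, and between 1 day and 1 week, 0 of 10 passed, against 4.38% and 5.43%. For Junb the step from 1 day to 1 week was -1.92 ± 0.63 with adjusted p = 0.064.

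The sham groups differed among the 4 times without any dose, in 5 of 10 genes (F test, 21.1% of all tested genes). The 5 were Fos (adjusted p = 0.0012), Egr1 (0.0012), Atf3 (0.036), Junb (0.014) and Jund (0.00046). The sham groups of different times also differ in the age of the animals and share no label of processing day, so age, time since sham treatment and processing cannot be told apart. The 3 genes Fos, Egr1 and Atf3 were higher early, and the 2 JUN genes Junb and Jund higher late.

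Fos had a median of 689 RPKM in the sham 2 h group (241 to 1574), 649 at 6 h (385 to 982), 187 at 1 day (171 to 331) and 313 at 1 week (247 to 444). Its level fell by 1.54 ± 0.35 from 2 h to 1 day (adjusted p = 0.0016), and the difference was -1.52 ± 0.35 from 6 h to 1 day (adjusted p = 0.0042) and -0.95 ± 0.35 from 2 h to 1 week (adjusted p = 0.049). Each of the 6 sham libraries of 1 day lay below every sham 6 h library. Egr1, the zinc finger factor, had medians of 467, 468, 130 and 206 RPKM at the 4 times in order. It fell by 2.08 ± 0.43 from 2 h to 1 day (adjusted p = 0.00059), the largest difference in size among the 10 genes in that comparison. Its lowest and highest values were 270.2 and 1899 RPKM at 2 h and 61.3 and 220 at 1 day, so these groups did not overlap. The share of all tested genes separating the same sham groups is not given here, so the separations of Fos and Egr1 are a description. Atf3 had medians of 26.4, 17.4, 4.75 and 7.36 RPKM, and fell by 1.63 ± 0.50 from 2 h to 1 day (adjusted p = 0.019), but its 2 h range of 3.92 to 66.5 overlapped the 1 day range of 3.13 to 8.72. The overlap came from 2 h libraries 5 and 6, at 3.92 and 5.36 RPKM.

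Jund went the other way, with sham medians of 12.3 RPKM at 2 h (4.30 to 77.2), 11.2 at 6 h (8.19 to 75.6), 53.3 at 1 day (35.9 to 174) and 102 at 1 week (53.8 to 142). It rose by 1.76 ± 0.51 from 2 h to 1 day (adjusted p = 0.013) and by 2.33 ± 0.51 from 2 h to 1 week (adjusted p = 0.0011). Junb had medians of 82.1, 71.1, 92.9 and 228 RPKM, and rose by 1.31 ± 0.45 from 2 h to 1 week (adjusted p = 0.035) and by 1.82 ± 0.45 from 6 h to 1 week (adjusted p = 0.0061). With the GC trend removed Jund remained past the threshold between 2 h and 1 week (1.54, adjusted p = 0.024) but not between 2 h and 1 day (1.04, adjusted p = 0.14), and Junb between 6 h and 1 week (1.42, adjusted p = 0.033) but not between 2 h and 1 week (0.69, adjusted p = 0.32), and Junb no longer passed the sham F test (adjusted p = 0.091). Atf3 no longer passed that test in 12 of 24 fits that left out 1 sham library. Sham 2 h libraries 1 and 2, at 67.3 and 77.2 RPKM of Jund, were inside the later range, and libraries 3 to 6, at 4.30 to 12.6, were below it.

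Between pairs of sham groups 13 comparisons of a gene passed in all. From 2 h to 1 day these were 4 of 10 genes (18.1% of tested genes), from 2 h to 1 week 4 of 10 (18.8%), from 6 h to 1 day 3 of 10 (10.9%) and from 6 h to 1 week 2 of 10 (12.2%). From 2 h to 6 h it was 0 of 10 with 0% of tested genes, and from 1 day to 1 week 0 of 10 with 0.00987%. These comparisons share groups. From 1 day to 1 week all 10 genes had a difference above 0 without passing, with a median of 0.59 against 0.04 over all tested genes. Of these, Jun (0.70 ± 0.28) and Junb (1.06 ± 0.45) had an unadjusted p under 0.05. The share of all tested genes with such a p, or above 0, is not given here. The 10 genes also share the same libraries, so these counts are a description with no test.

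**Figure D5:**
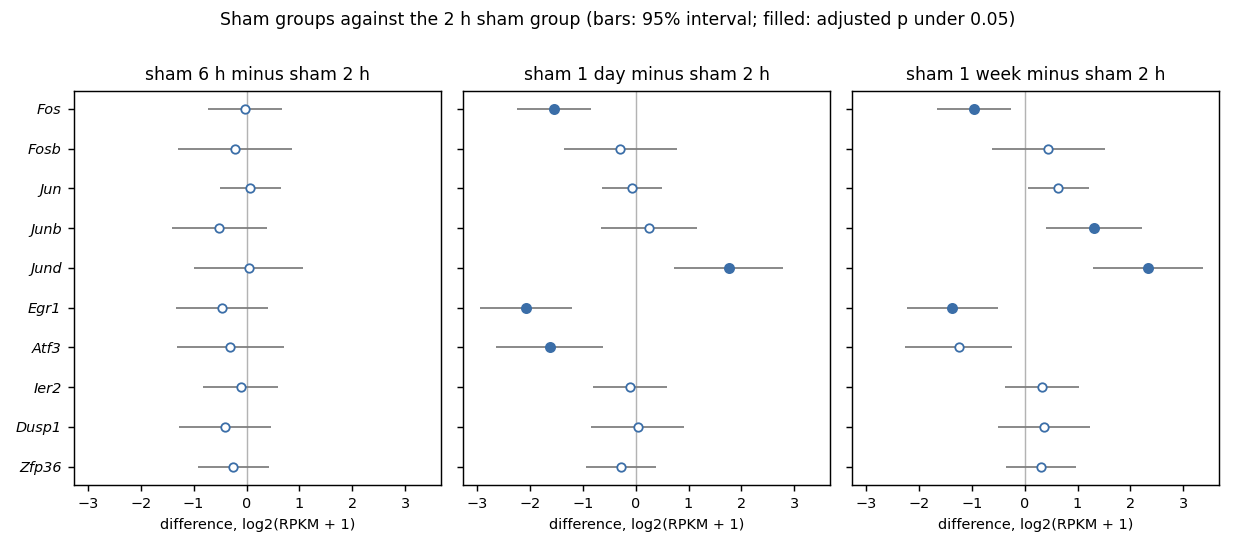
Difference of the sham groups at 6 h, 1 day and 1 week from the sham group at 2 h in log2(RPKM + 1), with 95% intervals, filled where the adjusted p was under 0.05. Fos, Egr1 and Atf3 lie left of 0 at 1 day, and Jund right of 0 at 1 day and 1 week.

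These falls and rises depended on which 2 h libraries were taken as the start. With only sham 2 h libraries 4 to 6, the differences from 2 h to 1 day were -0.61 for Fos, -1.25 for Egr1 and -0.13 for Atf3, none past the threshold, while Jund (2.83), Junb (1.43), Dusp1 (1.45), Ier2 (1.06) and Jun (0.76) were higher at 1 day and passed (16.1% of tested genes passed). With only libraries 1 to 3, Fos (-2.47), Egr1 (-2.90), Atf3 (-3.12), Fosb (-1.76), Dusp1 (-1.38), Ier2 (-1.27), Zfp36 (-1.22) and Jun (-0.89) were lower at 1 day and passed, and Jund differed by 0.69 without passing (9.01% of tested genes passed). Dusp1, Ier2 and Jun passed in opposite directions with the 2 sets. Because the sets were separated by these genes' own 2 h values, such directions and calls are a description and no measure of support. The differences of Fosb (1.18 and -1.76), Zfp36 (0.68 and -1.22) and Junb (1.43 and -0.93) also had opposite signs. The F test over the sham groups called 10 of 10 with either set, against 21.1% of tested genes with libraries 4 to 6 and 16.3% with libraries 1 to 3, but the sets were chosen on these genes' own values, so the counts are no measure of support. The comparisons of 6 h with 1 day hold no 2 h library, and there Fos and Egr1 fell and Jund rose (1.72 ± 0.51, adjusted p = 0.024). With sham 6 h libraries 5 and 6 alone the differences were -0.89 for Fos, -0.47 for Egr1 and 0.02 for Jund, but that fit called 0% of tested genes in this comparison, so a lost call says nothing there. With the GC trend removed Jund had adjusted p = 0.076.

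Other genes of the early response, of the relay that triggers it and of the heat shock response were taken from lists, whose counts stand beside 8.62% of all tested genes at 2 h, 20.9% at 6 h, 4.29% at 1 day, 3.54% at 1 week and 21.1% among the sham groups. Of 13 tested further transcription factors of the early response, 1 passed at 2 h, Cebpb, a bZIP factor of inflammatory genes, which rose by 1.89 ± 0.36 (adjusted p = 0.00019) from 6.42 ± 3.71 to 36.9 ± 43.2 RPKM (SD, n = 6). At 6 h 3 rose, Cebpb (1.16), Myc (1.00) and Maff (0.73), and 1 fell, Cebpd (-1.78, adjusted p = 0.043). The median difference of these 13 genes was -0.56 at 2 h and 0.35 at 6 h, against -0.01 and 0.08 over all tested genes. At 1 day and 1 week 0 of 13 passed, and 5 of 13 differed among the sham groups, among them Ier5 (adjusted p = 0.0062), Cebpd (0.010) and Myc (0.019).

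Of 8 tested relatives in the AP-1 and CREB/ATF families, Creb1, which encodes the factor that binds cyclic AMP response elements, rose at 2 h by 1.01 ± 0.11 (adjusted p = 8.8e-10) and fell at 6 h by 0.28 ± 0.11 (adjusted p = 0.049). At 6 h Mafg (0.72), Maff (0.73) and Fosl2 (0.55) rose, and at 1 week Mafg rose (0.49, adjusted p = 0.037). At 1 day 0 of 8 passed. Among the sham groups Batf3 and Atf4 differed, and Atf4, the effector of the integrated stress response, fell by 0.88 from 2 h to 1 day in sham (adjusted p = 0.028).

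Of 26 tested feedback and effector genes, 5 rose and 2 fell at 2 h. Plk2, a polo-like kinase gene that p53 also activates, rose by 3.99 ± 0.24 (adjusted p = 2.0e-17) from 0.89 ± 0.86 to 27.6 ± 9.66 RPKM (SD, n = 6), Ptgs2, the cyclooxygenase gene, rose from 0.45 ± 0.40 to 2.32 ± 0.76 RPKM, Sik1 rose by 1.08, and Dusp6, a phosphatase of ERK, fell by 0.60. At 6 h 6 rose, with Plk2 (2.86), Plk3 (1.44) and Trib1 (1.12) among them, and 2 fell, with Rgs2 at -0.67. At 1 day 2 rose, Plk2 (1.73) and Plk3 (0.95), and 2 fell, Socs3 (-1.29) and Rgs2 (-0.71), and at 1 week 0 of 26 passed. Among the sham groups 8 of 26 differed, and Rgs1 (-1.69), Tnfaip3 (-1.40), Zfp36l2 (-1.13) and Dusp6 (-0.90) were each lower at 1 day than at 2 h, with adjusted p between 6.2e-05 and 0.00048.

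Of 14 tested genes of the MAP kinase relay and serum response factor, 2 rose and 3 fell at 2 h, with Elk3, a ternary complex factor, up by 0.57 and Map3k1 (-0.52), Rps6ka1 (-0.61) and Map2k1 (-0.35) down. At 6 h Srf rose by 1.04 ± 0.20 (adjusted p = 0.00019) and Mapkapk2 by 0.51, and 2 of the 14 fell, with Mapk9 at -0.43. At 1 day and 1 week 0 of 14 passed, and 5 of 14 differed among the sham groups, among them Elk3 (adjusted p = 0.00084), Elk4 (0.0021) and Rps6ka1 (0.011).

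Of 14 tested heat shock genes 0 passed at 2 h, at 1 day and at 1 week, and 3 fell at 6 h. Hsph1 fell by 1.26 ± 0.27 (adjusted p = 0.00074). Hspa5, the chaperone of the endoplasmic reticulum, differed by -0.68 (adjusted p = 0.0019) and Hspa8, the constitutive chaperone, by -0.75 (adjusted p = 0.017). Their sham 6 h levels were 4.58 ± 3.55, 162 ± 62.2 and 104 ± 53.0 RPKM, and their irradiated levels 0.94 ± 0.42, 96.0 ± 18.2 and 55.6 ± 14.8 (SD, n = 6). As with Fos, the sham 6 h libraries 1 to 3 had the highest heat shock sums of that group. Among the sham groups Hsp90ab1, Hspa8 and Hsp90aa1 differed, with a difference of 0.80 from 2 h to 1 week for Hsp90ab1 and of -0.73 from 2 h to 1 day for Hspa8.

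The genes whose levels followed the 10 most closely over the 48 libraries were taken from 1868 other tested genes at a mean of 5 RPKM or more that are not predicted, small RNA or mitochondrial genes, by Pearson correlation with the mean standardised profile of the 10. Ppp1r15a, an early stress gene whose protein restarts translation, had r = 0.90, Klf4 0.87 and Brd2 0.78, followed by Ftl1, Rpl10, Klf2, Txnip, Eif1, Ubb and Ptma at 0.74 to 0.77. Ppp1r15a averaged 42.3 RPKM in the sham 2 h group, 22.8 in the sham 1 day group and 43.2 in the irradiated 6 h group. The 10 genes themselves correlated with their mean profile at 0.45 (Jund) to 0.90 (Zfp36), with Fos at 0.56 and Egr1 at 0.52. All of these values share the 48 libraries, their depth and the differences between library sets described above, and they are given as a description.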

How the data were processed

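Sorted hippocampal microglia of 48 mice were profiled by bulk RNA sequencing. The submitters' processing notes name bcl2fastq 2.20.0, FastQC 0.11.8, STAR 2.6.1d, featureCounts 1.5.1 and the GRCm38 (mm10) build; the strand setting and annotation version are not given in the sources used here. The authors deposited RPKM values. Low values were whole multiples of 1 read per gene span, which recovered reads for 100% of 719081 values above 0 within 0.001 reads, but only 2.05% of values had been divided by their own library's total. Reads were therefore rescaled to RPKM with each library's own total; for the 10 genes, deposited values were 0.0712 to 16.8 times the rescaled ones.

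Genes at 1 RPKM or more in 6 or more libraries were tested as log2(RPKM + 1) with limma 3.58.1 in R 4.3.3 (8 group means, moderated with trend and robust options, 40 residual degrees of freedom). P-values were Benjamini-Hochberg adjusted over the 10132 genes in each comparison, with 0.05 as threshold. Errors are SE for differences and SD for levels. The procedure was tested on simulated data. Promoters came from RefSeq (GRCm38.p6). Python 3.11.15 was used.

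The members and lists were chosen with earlier results of these data known. All 10 genes were tested in every comparison, and the counts are out of all 10. The text gives the differences of only some of them. The plot of differences between irradiated and sham groups shows each gene at each time. Of each list, up to 4 tested members with the smallest adjusted p are named, and where none passed up to 2 of the most abundant; likeness names the 10 genes with the highest correlation. Correlations of deviations between same-numbered sham and irradiated libraries ran from -0.107 to 0.137 (2 of 24 over 0.1). The main fit did not pair samples. Low correlations of this kind cannot exclude handling shared by library number. At 2 h the same library numbers stood higher in sham and in irradiated microglia, for 9 of 10 genes in each group. Alternatives covered the pseudocount, filter, scaling, deposited values, voom, shallow libraries, library sets, a GC and span trend, and each library left out.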

Additional observations from a re-analysis of the deposited data

Results flagged for a closer look

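In 8 of 80 combinations of gene and group, 1 library lay far from the other 5. A chance rate of about 1 in 20 groups holds for normally distributed values, and the RPKM values were not tested for that. The genes also share the same libraries, so the count is a description and is not compared with a chance rate. Fosb was at 185 RPKM in irradiated 6 h library 1 (others 22.2 to 42.3) and at 119 in sham 1 week library 3 (others 42.4 to 66.6). That second library also held the highest Ier2 of its group, 326 RPKM against 109 to 177. Junb was at 358 RPKM in irradiated 2 h library 1 (others 45.9 to 130.1), and Egr1 at 1899 in sham 2 h library 3 (others 270.2 to 757). Atf3 was at 21.9 RPKM in irradiated 1 week library 1 (others 5.62 to 9.40). Dusp1 was at 317 RPKM in sham 1 day library 6, the shallowest library (others 113 to 172), and at 88.9 in irradiated 1 week library 5 (others 132 to 153), the 1 case in which the library was the lowest.

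The same held for 6 of 72 combinations of marker list and group. Neuronal markers summed to 369 RPM (reads per 1000000 assigned reads) in irradiated 1 week library 4 (others 3.91 to 7.84), astrocyte markers to 42.4 in irradiated 2 h library 4 (others 15.2 to 23.0), and monocyte and neutrophil markers to 51.3 in sham 1 day library 6 (others 12.9 to 22.7). Lymphocyte markers summed to 1.64 in irradiated 1 day library 4, 3.97 in sham 1 day library 2 and 4.16 in sham 6 h library 1, each against 1.41 or less in the other libraries of its group.

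The difference between irradiated and sham groups changed with time in 2 genes. For Jund it moved by 2.47 on the log2(RPKM + 1) scale from 2 h to 6 h, and the F test over the 4 times gave limma adjusted p = 0.00411 for Jund and 0.0485 for Junb.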

How the results depend on the processing

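Of 980 single-gene values under alternatives, 954 kept their side of the threshold, 23 came to pass and 3 no longer passed (Jund at 6 h). Of the 954, 72 changed sign (27 at 2 h, 10 at 6 h, 25 at 1 day and 10 at 1 week), none past the threshold with either sign. Counts of the 10 genes at 2 h and 1 day were 0 under every alternative run, but with values as deposited only 52 and 39 genes passed in all. In what follows, brackets give the share or number of all tested genes that passed. For settings without brackets it is not given here. At 6 h the count was 1 (20.9%). It became 0 with values as deposited (64 genes), with sham 6 h libraries 5 and 6 alone (2.09%) and with the GC and span trend removed (14.6%). It became 2 with sham 6 h libraries 1 to 4 alone (30.2%) and 3 with only the 12 libraries of 6 h (1427 genes). Without 2 h libraries 1 to 3 it was 4 (21.6%), and without 4 to 6 it was 3 (21.4%). At 1 week the count was 0 (3.54%). It became 2, Jund and Junb, with voom (709 genes), without libraries under 1000000 reads (440 genes) and with the GC trend removed (3.58%). It was also 2 with only its 12 libraries (306 genes), and without 2 h libraries 1 to 3 (4.2%) or 4 to 6 (3.6%). The count of effects differing between adjacent times was 1. It became 0 with no filter, values as deposited (12 calls over all tested genes) or sham 6 h libraries 5 and 6 alone. It became 2 without shallow libraries (2021 calls) or with sham 6 h libraries 1 to 4 alone. With voom it was 3 (2444 calls), and without 2 h libraries 4 to 6 it was 4. The F test of the effect gave 2 (19.3%) in the main fit, and 1 with pseudocount 0.1, no filter or the GC trend removed (16.1%). It gave 0 with values as deposited (16 genes) or sham 6 h libraries 5 and 6 alone, and 4 without 2 h libraries 4 to 6 (18.6%). The sham F test gave 5 (21.1%) in the main fit, 1 as deposited (670 genes) and 3 with sham 6 h libraries 5 and 6 alone. It gave 10 without 2 h libraries 1 to 3 (21.1%) or 4 to 6 (16.3%). Sham pairs (13 in the main fit) gave 8 with no filter or sham 6 h libraries 5 and 6 alone, and 1 as deposited (1610 calls over all tested genes). They gave 20 or 24 without 2 h libraries 1 to 3 or 4 to 6. The library sets and the GC trend were chosen after seeing the data. The cause was not tested.

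With a replicate block the effect F test gave 1, losing Junb, and the sham pairs 15; the block changed no other count.

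Leaving out 1 library at a time gave 1 to 1 at 6 h, 0 to 1 at 1 week (1 without sham library 6 or irradiated library 2 or 3), 0 to 2 for adjacent times, 1 to 2 for the effect F test, 4 to 5 for the sham F test and 10 to 15 sham pairs. Adjacent times gave 0 without sham 2 h library 1, irradiated 2 h library 5 or sham 6 h library 1, 2 or 4, and 2 without sham 2 h library 5, irradiated 2 h library 1, sham 1 day library 6 or sham 1 week library 6. Depth limited Jund most, at 10 to 696 reads.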
